A study of Mus musculus with 12 samples.

Results

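The autophagy genes described here are Dram1, Dram2, Ulk1, Ulk2, Sqstm1, Map1lc3b, Gabarapl1, Wipi1, Atg7 and Tfeb. They were picked by gene symbol from the 29486 genes of a table of normalized counts, and each of the 10 symbols matched 1 row. Total mRNA was sequenced from splenic B cells of C57BL/6Babr mice in 12 libraries, 4 for each of 3 conditions. In every condition the cells had been activated with LPS (10 μg/ml), a bacterial mitogen. The first group received LPS for 48 h and nothing else (LPS). The second received LPS for 48 h followed by 4 h with etoposide at 20 μM, a topoisomerase II inhibitor that leaves double-strand breaks in DNA (LE). The third received LPS for 47 h, then KU55933 at 10 μM, an inhibitor of the DNA damage kinase ATM, for 1 h, and then the same etoposide treatment (LEKU). The labels do not say whether the LPS cells were kept in culture for the further 4 h, and no cells received KU55933 without etoposide. Each condition had sequencing indexes of its own, so that index and condition cannot be told apart. The libraries are labelled as replicates 1 to 4 of each condition, and the labels do not say whether these came from separate mice.

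Autophagy encloses cytoplasm in a double membrane and delivers it to lysosomes for breakdown. A kinase complex built around Ulk1 or Ulk2 starts the process, a lipid kinase complex marks the membrane, and Wipi proteins read that mark. Atg7 activates the small Atg8 proteins, such as Map1lc3b (LC3B) and Gabarapl1, for coupling to the membrane, where cargo receptors such as Sqstm1 (p62) bind them. Tfeb is a transcription factor for autophagy and lysosome genes, and Dram1 is a lysosomal membrane protein known as a p53 target. mRNA abundance does not measure autophagy itself.

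The 4 columns of a condition were multiples of each other throughout the table (log2 ratios varied by no more than 1.4e-14 over the genes). The table therefore holds 1 fitted mean per condition multiplied by a factor for each library, and no spread between replicates. Whether columns of different conditions overlap is therefore set by these means and factors and says nothing of replicates. No test could be made, and whether a difference is larger than the spread between replicates cannot be told from these values. The 95% intervals below are exact binomial intervals that take 1 unit of the table as 1 read. They cover counting error only and are too narrow as intervals for the conditions. The columns summed to between 20400994 and 30575195 per library. Levels are fitted counts divided by library factors, and of the 29486 genes 15613 reached a level of 10 in at least 1 condition. All 10 autophagy genes were among them. Dram1 reached it in 2 of the 3 conditions only, and was kept because of its levels with etoposide.

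The 6 listed markers of B cells were all abundant, with a summed level of 130330 in LPS, 74263 in LE and 83195 in LEKU. Of these, Pax5 had levels of 5406, 1139 and 1175 and Cd22 of 23516, 4342 and 5094 in the same order. The macrophage list summed to 411, 481 and 440, with 6 of 8 genes above the minimum level, and the T cell list to 422, 308 and 281, almost all of it Lck. The defining T cell genes Cd3e, Cd3d and Cd3g had levels of at most 3.57, and none of the NK cell genes found reached 10. The plasmablast list summed to 13692, 14329 and 10072, and of it Sdc1, the surface marker CD138, had levels of 135, 1984 and 641, the same order of conditions as Dram1, Ulk1 and Wipi1 below. Prdm1 and Xbp1 were highest in LPS, and Jchain was lowest in LEKU. The dendritic cell list summed to 2878, 1938 and 3426, most of it Flt3 (2733, 1677 and 2965). Of its other members, Zbtb46 had levels of 101, 184 and 410 and Xcr1 of 40.2, 70.9 and 45.6. Itgax and Siglech had levels of at most 5.25. The red blood cell list summed to 213, 188 and 117 and the neutrophil list to 12.2, 15.6 and 15.0. In total mRNA of a culture, fewer cells of a type and less RNA per cell cannot be told apart, and the part of these shifts in the results below was not tested.

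With etoposide, 3 of the 10 autophagy genes were higher than with LPS by at least 1.5-fold and 2 were lower by as much. The higher ones were Dram1, Ulk1 and Wipi1, and the lower ones were Tfeb and Atg7. Of all genes kept, 37.7% were past 1.5-fold in this comparison, 23.4% higher and 14.4% lower. The median log2(level + 1) difference of the 10 genes was 0.26, against 0.041 for all genes kept.

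With KU55933 and etoposide against etoposide, 3 of the 10 were lower by at least 1.5-fold and 1 was higher. Dram1, Ulk1 and Wipi1 were the lower ones, and Sqstm1 was the higher one. Of all genes kept, 18.9% were past 1.5-fold, 6.93% higher and 11.9% lower. The median log2(level + 1) difference of the 10 genes was 0.035, against −0.049 for all genes.

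With KU55933 and etoposide against LPS, 6 of the 10 were higher by at least 1.5-fold and 2, Atg7 and Tfeb, were lower. The background was 36.2% of all genes, 22% higher and 14.2% lower. The median log2(level + 1) difference was 0.75, against 0.068 for all genes. The 3 comparisons share libraries pairwise, so that they are not independent of each other. The 10 genes were chosen with earlier results of these data known. Their counts and medians in the 3 comparisons are therefore no neutral comparison with all genes.

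**Figure D1:**
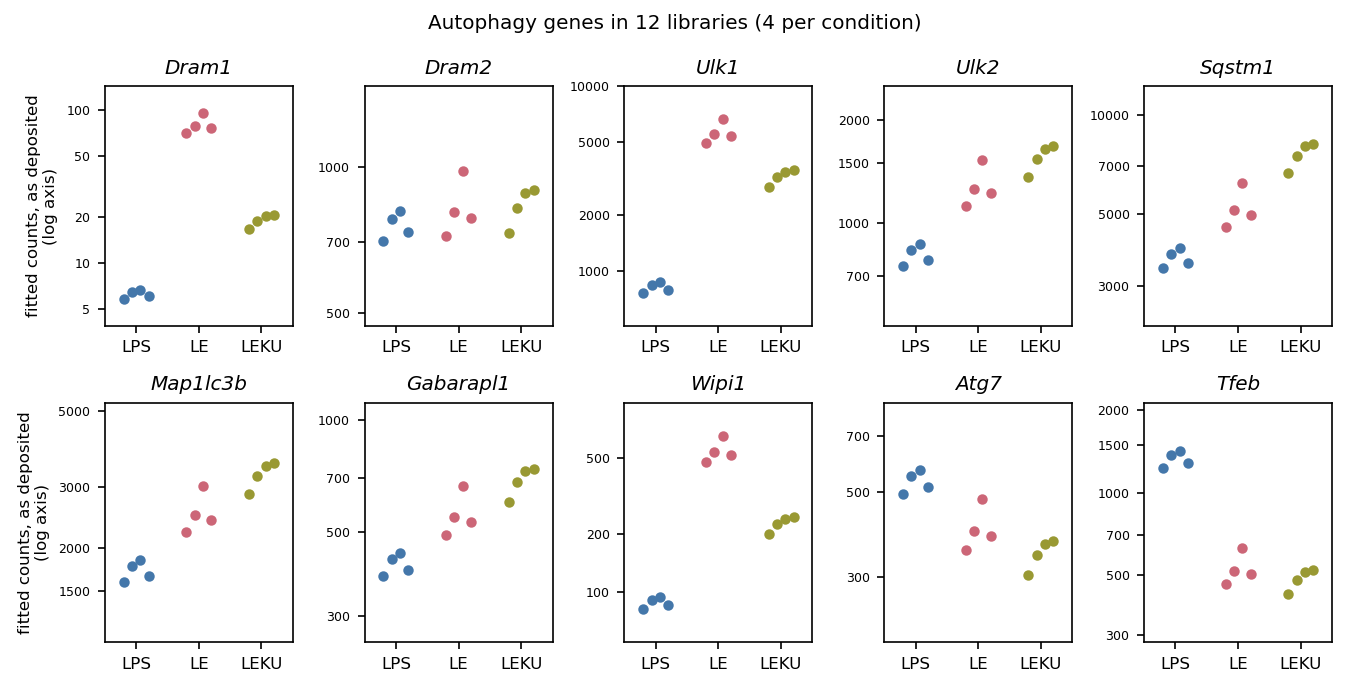
Fitted counts of each autophagy gene in the 12 libraries as deposited, on log axes whose range differs between panels (LPS, blue; LPS with etoposide, LE, red; LPS with KU55933 and etoposide, LEKU, olive). Points of a condition differ by the library factor alone; Ulk1 lies between 753 and 869 in LPS and between 4911 and 6667 in LE, while the points of Dram2 lie between 704 and 979 in all 3 conditions.

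Ulk1 (ENSMUSG00000029512, chromosome 5, 110784488 to 110810097 on the minus strand, GRCm38) encodes the kinase that starts autophagosome formation. Its deposited fitted counts were 753, 836, 869 and 783 in the LPS libraries. They were 4911, 5505, 6667 and 5337 in LE and 2848, 3211, 3440 and 3497 in LEKU. LE was highest and LEKU lay between the others. After scaling, the level was 899 in LPS and 5131 in LE, a ratio of 5.71 (counting interval 5.50 to 5.92). In LEKU the level was 3162, which was 0.616 times that in LE (0.603 to 0.630) and 3.52 times that in LPS (3.39 to 3.66). Of the 15613 genes kept, 577 had a larger log2 difference between LE and LPS than Ulk1.

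Ulk2 (ENSMUSG00000004798, chromosome 11, 61775649 to 61855073, minus strand) encodes the closest relative of Ulk1. It stood at nearly the same level as Ulk1 in LPS, 897. Its level was 1177 in LE and 1521 in LEKU, so that it was highest where the inhibitor was present. The ratio was 1.31 between LE and LPS (1.26 to 1.37) and 1.29 between LEKU and LE (1.24 to 1.34). Per kilobase of exon, taken as the union of all annotated exons of a gene, Ulk1 made up 48.0% of the sum of both genes in LPS. It made up 80.1% in LE and 65.7% in LEKU. Ulk2 per kilobase was 1.08 times Ulk1 in LPS, and Ulk1 was 4.01 times Ulk2 in LE.

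Dram1 (ENSMUSG00000020057, chromosome 10, 88322804 to 88379080, minus strand) had deposited fitted counts of 5.78, 6.41, 6.67 and 6.01 in LPS. They were 70.8, 79.3, 96.1 and 76.9 in LE and 16.7, 18.9, 20.2 and 20.5 in LEKU. Here too LPS was lowest, LEKU in between and LE highest. The scaled level of 6.90 in LPS and 74.0 in LE gave a ratio of 10.7 with a wide counting interval of 7.09 to 16.7. In LEKU the level was 18.6, which was 0.251 times that in LE (0.192 to 0.322) and 2.69 times that in LPS (1.68 to 4.38). Of the 15613 genes, 265 had a larger log2(level + 1) difference between LE and LPS, and 119 a lower one between LEKU and LE. Dram1 was among these genes only through its levels with etoposide, so its ranks are no separate support for the differences. The table holds no value of 0, so that a fitted count this low does not show whether Dram1 reads were found in each LPS library. The size of the ratio rests on that low value: the log2 difference was 3.25 with 1 added to each level and 2.73 with 5 added.

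Dram2 (ENSMUSG00000027900, chromosome 3, 106547798 to 106575890, plus strand), the related gene, had levels of 840 in LPS, 753 in LE and 810 in LEKU. Its LE to LPS ratio was 0.897 (0.854 to 0.943), and it turned to the other side of 1 when the columns were left as deposited. Its LEKU to LPS ratio of 0.964 (0.918 to 1.01) was on the other side of 1 with trimmed mean of M-values (TMM) factors, with column totals and with the columns as deposited. Dram2 shares exonic bases with Cept1 on the opposite strand, which had levels of 1269, 995 and 1251. Per the methods of the study, the libraries were made with a stranded mRNA kit. The strand setting of the counting is not given in the sources used here, and the part of Cept1 in the Dram2 values was not tested. Per kilobase of exon, Dram1 made up 1.00% of the sum of both genes in LPS, 10.8% in LE and 2.75% in LEKU. Dram2 was thus 8.25 times as high as Dram1 per kilobase in LE.

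Wipi1 (ENSMUSG00000041895, chromosome 11, 109573331 to 109611967, minus strand) encodes a protein that binds phosphatidylinositol 3-phosphate on the forming autophagosome. Its deposited fitted counts were 81.8, 90.7, 94.4 and 85.0 in LPS. They were 477, 534, 647 and 518 in LE and 200, 225, 241 and 245 in LEKU. As for Ulk1, LEKU lay between LPS and LE. The level was 97.6 in LPS and 498 in LE, a ratio of 5.10 (4.56 to 5.72). In LEKU it was 222, a ratio of 0.445 to LE (0.412 to 0.481) and of 2.27 to LPS (2.01 to 2.58).

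**Figure D2:**
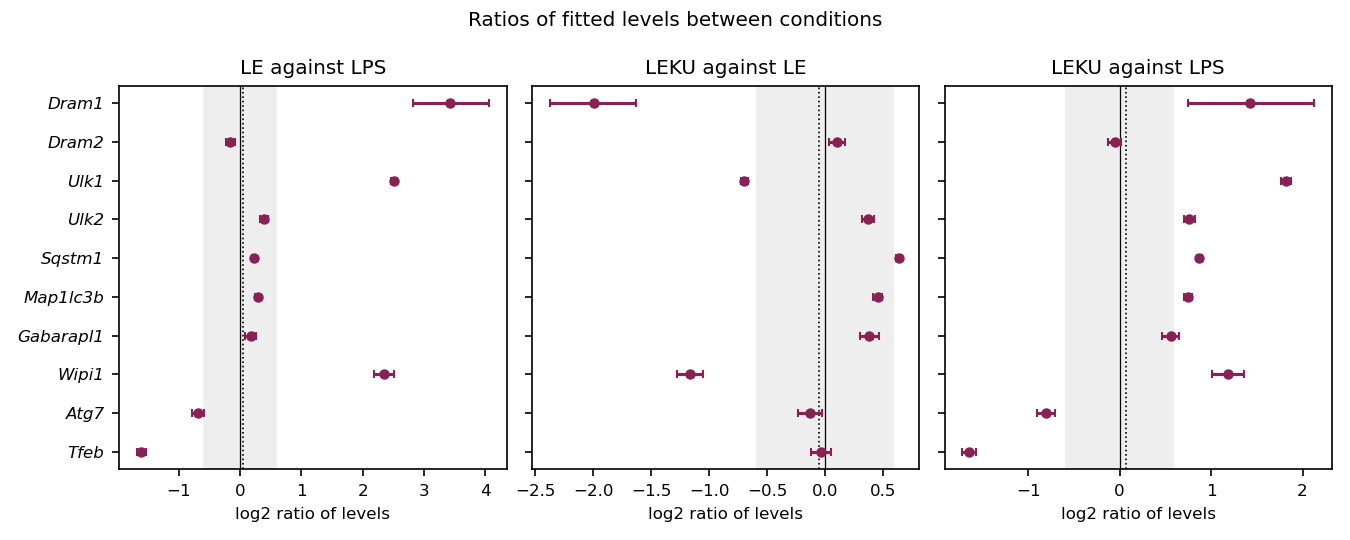
Log2 ratio of the scaled levels for each autophagy gene in the 3 comparisons, with 95% intervals of counting error only. The grey band marks less than 1.5-fold and the dotted line the median log2(level + 1) difference of all genes kept; Dram1, Ulk1 and Wipi1 lie right of the band in LE against LPS and left of it in LEKU against LE, while Tfeb is at −1.61 in the first and −0.035 in the second.

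Tfeb (ENSMUSG00000023990, chromosome 17, 47737030 to 47792419, plus strand) was lower in both conditions with etoposide. Its deposited fitted counts were 1235, 1370, 1426 and 1285 in LPS. They were 462, 517, 627 and 502 in LE and 424, 478, 512 and 521 in LEKU. LPS was highest, and LE and LEKU were close to each other. The level was 1474 in LPS and 482 in LE, a ratio of 0.327 (0.311 to 0.344), and 153 of the 15613 genes had a lower log2 difference. In LEKU the level was 471, and the ratio to LE was 0.976 (0.918 to 1.04). With column totals, and with factors set on all 29486 genes of the table, that ratio was above 1.

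Atg7 (ENSMUSG00000030314, chromosome 6, 114643097 to 114860614, plus strand) encodes the activating enzyme of both conjugation reactions of autophagy. Its deposited fitted counts were 496, 550, 572 and 516 in LPS, 353, 395, 479 and 383 in LE, and 304, 343, 367 and 373 in LEKU. LPS was highest, and LE and LEKU were close to each other. The scaled level was 592 in LPS and 369 in LE, a ratio of 0.623 (0.584 to 0.665) that was inside 1.5-fold when the columns were left as deposited. In LEKU it was 337, or 0.915 times the level in LE (0.851 to 0.984).

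Sqstm1 (ENSMUSG00000015837, chromosome 11, 50199366 to 50210827, minus strand) encodes a receptor that carries ubiquitin-marked cargo to autophagosomes and is itself broken down there. Its deposited fitted counts were 3399, 3771, 3922 and 3534 in LPS. They were 4564, 5116, 6196 and 4959 in LE and 6675, 7527, 8064 and 8197 in LEKU. LEKU was highest and LPS lowest. The scaled level was 4055 in LPS and 4768 in LE, a ratio of 1.18 (1.15 to 1.201). It was 7413 in LEKU, 1.55 times the level in LE (1.53 to 1.58) and 1.83 times that in LPS (1.79 to 1.86). The LEKU to LE value came inside 1.5-fold when the columns were left as deposited, at a log2 difference of 0.55.

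The Atg8 genes among the 10 had the same order of conditions as Sqstm1. Map1lc3b (ENSMUSG00000031812, chromosome 8, 121590361 to 121598760, plus strand) had levels of 1903 in LPS, 2324 in LE and 3187 in LEKU. Its ratio was 1.22 between LE and LPS (1.18 to 1.26) and 1.37 between LEKU and LE (1.34 to 1.41). Gabarapl1 (ENSMUSG00000030161, chromosome 6, 129533160 to 129542346, plus strand) had levels of 455, 513 and 669 in the same order. Its ratio was 1.13 between LE and LPS (1.06 to 1.202) and 1.30 between LEKU and LE (1.23 to 1.38). Both were below 1.5-fold in each of these comparisons. Against LPS, LEKU was 1.67 times as high for Map1lc3b (1.63 to 1.72) and 1.47 times as high for Gabarapl1 (1.38 to 1.56). Map1lc3b, Gabarapl1 and Sqstm1 also share exonic bases with genes on the opposite strand, whose levels were at most 32.1 (Zcchc14), 1.55 (1700101I11Rik) and 100.5 (Mrnip). Reads shared with near-identical gene copies were not examined.

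The 10 genes were sorted by the condition in which their fitted level was highest. Any gene can be sorted in this way, and the share of all genes kept in each order was not counted. Dram1, Ulk1 and Wipi1 were highest in LE. Ulk2, Sqstm1, Map1lc3b and Gabarapl1 were highest in LEKU and lowest in LPS. Tfeb and Atg7, and by a small margin Dram2, were highest in LPS. By the Euclidean distance between pairs of log2 differences (LE against LPS, LEKU against LE), which rests on 3 conditions only, the closest member to Ulk2 and to Gabarapl1 was Map1lc3b, at 0.14 in each case. The closest member to Sqstm1 was also Map1lc3b, at 0.19. Ulk1 and Wipi1 were closest to each other, at 0.50, and Dram1 was 1.19 from Wipi1. Among all 10873 kept genes with a mean level of at least 100, the genes closest to Dram1 were Gna15 (distance 0.17), Rgs18 (0.19) and Gcdh (0.35). Gna15 had levels of 112, 1016 and 295 in LPS, LE and LEKU, far above those of Dram1.

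**Figure D3:**
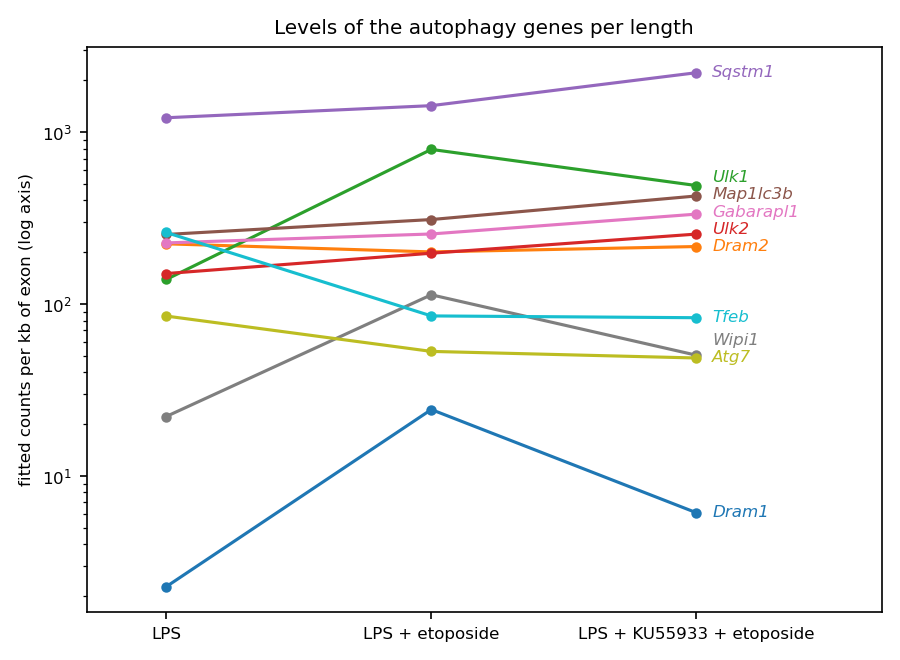
Scaled levels of the 10 genes divided by the union of annotated exons of each gene, in fitted counts per kilobase on a log axis, for the 3 conditions, 1 fitted value per point. Sqstm1 was highest and Dram1 lowest in all 3 conditions, and Ulk1 moved from the seventh to the second place between LPS and LE.

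Per kilobase of exon, Sqstm1 was the most abundant of the 10 in each condition, at 1208 fitted counts in LPS, 1421 in LE and 2209 in LEKU. The length is that of all annotated exons together, such as 7517 bases for Map1lc3b, so the order between genes depends on the annotated transcripts. Which transcripts were present was not tested. In LPS, Tfeb, Map1lc3b, Gabarapl1 and Dram2 followed at levels between 223 and 260, close enough that their order is uncertain. Ulk2 was at 150 and Ulk1 at 139, and Atg7, Wipi1 and Dram1 were at 84.9, 22.1 and 2.26. In LE, Ulk1 was second at 791 and Tfeb eighth at 85.1. In LEKU, Ulk1 was still second at 487, next to Map1lc3b at 424. The highest level was 534 times the lowest in LPS, 58.5 times in LE and 362 times in LEKU.

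RefSeq promoter windows (GRCm38.p6, 250 bases before to 50 after the start) were found for all 10 genes, 12 windows in all because Tfeb has several starts. Their median GC content was 66.5%, against 52.7% for 32851 windows of all genes, and only the windows of Atg7 (42.7%) and Gabarapl1 (46.3%) were below that median. They were searched on both strands for the E-box CACGTG, for the CLEAR element that Tfeb is known to bind (the E-box with GT before it and AC after it), for the forkhead motif TGTTTAC, for the antioxidant response core TGACNNNGC and for the p53 half-site. The E-box was present in 7.15% of all windows and in 1 of the 12, that of Atg7. The antioxidant response core was in 12.4% of all windows and in 2 of the 12, those of Ulk2 and Map1lc3b. The CLEAR element, the forkhead motif and the p53 half-site, in 0.326%, 3.65% and 8.36% of all windows, had no match in the 12, which says only that these letters are not in these windows. The RefSeq starts used are not always the outer ends of the genes. The windows of Atg7 (114670846 to 114671145) and Dram1 (88357026 to 88357325) lie inside the gene bounds given above. So do that of Wipi1 and some of those of Tfeb. The bases before the outer ends of Atg7, Dram1 and Wipi1 were not searched. The E-box began 132 bases before the RefSeq start used for Atg7 (chr6:114670952-114670981, plus strand). The antioxidant response core began 17 bases before that of Ulk2 (chr11:61855090-61855119, minus strand). Both are shown 5′ to 3′ with the motif in capitals, as the matches that lie before the start.
Atg7: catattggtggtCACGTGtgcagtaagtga
Ulk2: caagacgcgcTGACGTCGCacagggccggt

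Beyond these 10, 52 further genes of the autophagy pathway were listed by role, and 49 of them reached the minimum level. With etoposide against LPS, 9 of the 49 were higher by at least 1.5-fold and 3 were lower. That is 24.5% of the list, against 37.7% of all genes kept, and the median log2(level + 1) difference was 0.12. The 3 lower genes were Uvrag and, named after their values were seen, Ambra1 and Atg10. The split of 9 higher and 3 lower became 5 and 6 when the library factors were set on all 29486 genes of the table. It became 16 and 2 when the columns were left as deposited. With KU55933 and etoposide against etoposide, 2 of the 49 were higher by at least 1.5-fold and none was lower (4.08%, against 18.9% of all genes). The 2 were Tecpr1 and, named after its values were seen, Mitf. With KU55933 and etoposide against LPS, 9 were higher and 4 lower (26.5%, against 36.2% of all genes). This split became 8 and 7 with factors set on all genes of the table and 10 and 2 with TMM factors. It became 13 and 2 with column totals, and 16 and 1 with the columns as deposited.

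The 3 listed partners of Ulk1 in the initiation complex, Atg101, Atg13 and Rb1cc1, were inside 1.5-fold in all 3 comparisons, in which 37.7%, 18.9% and 36.2% of all genes were past it. With the columns as deposited, all 3 were past 1.5-fold in LE against LPS, at log2 differences of 0.62 to 0.77, and Atg13 was also past it in LEKU against LPS (0.72, and 0.66 with column totals). Atg101 had levels of 509 in LPS, 715 in LE and 610 in LEKU, and Atg13 of 1197, 1524 and 1728. Of the 7 listed genes of the lipid kinase complex, 2 were higher and 2 lower by at least 1.5-fold with etoposide, and 3 were inside it. That is 57.1% past 1.5-fold, against 37.7% of all genes. Atg14 and Uvrag are named as the highest and the lowest of this list, so their contrast follows from the choice. Atg14, the subunit of the autophagy form of the complex, had levels of 259, 626 and 553, 2.42 times as high in LE as in LPS. Uvrag, the subunit of the other form, had levels of 3460, 1072 and 1317, a ratio of 0.310. Among the proteins that act with Wipi1, Atg2b, a lipid transfer protein, had levels of 3251, 4665 and 3234. Wipi2, the relative of Wipi1, had levels of 2228, 1930 and 2273, without the 5.10-fold difference of Wipi1.

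In the conjugation machinery around Atg7, 1 of 10 genes was higher and 1 lower by at least 1.5-fold with etoposide (20% of the list, against 37.7% of all genes). The higher one was Atg12 and the lower one was Atg10, the latter named after its values were seen. Atg12, the protein that Atg7 first activates, had levels of 843 in LPS, 1328 in LE and 1635 in LEKU. Atg5, to which Atg12 is joined, had levels of 904, 647 and 599, in the same order as Atg7. Its LE to LPS ratio of 0.715 was inside 1.5-fold. The remaining Atg8 genes ranged from Map1lc3a, with levels of 88.3, 140 and 183, to Gabarapl2, with 1408, 1059 and 1316. All 3 of them were higher in LEKU than in LE, like Map1lc3b and Gabarapl1, by log2 differences of 0.11 to 0.39. None was past 1.5-fold, against 18.9% of all genes. The share of all genes that were higher in LEKU by any amount was not counted, so the shared direction is a description only.

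Among the other cargo receptors, Calcoco1 showed the order of Sqstm1, with levels of 603, 918 and 1262. Bnip3, a mitochondrial receptor, went the other way with 1475, 1063 and 886. Of the genes for fusion with lysosomes, Stx17, the SNARE protein of the autophagosome, had levels of 631, 1199 and 1209. Tecpr1, which links autophagosomes to lysosomes, had levels of 900, 627 and 1237, a LEKU to LE ratio of 1.97. Tfe3, which shares targets with Tfeb, had levels of 1249, 1450 and 1590 and so did not show the low levels of Tfeb with etoposide.

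**Figure D4:**
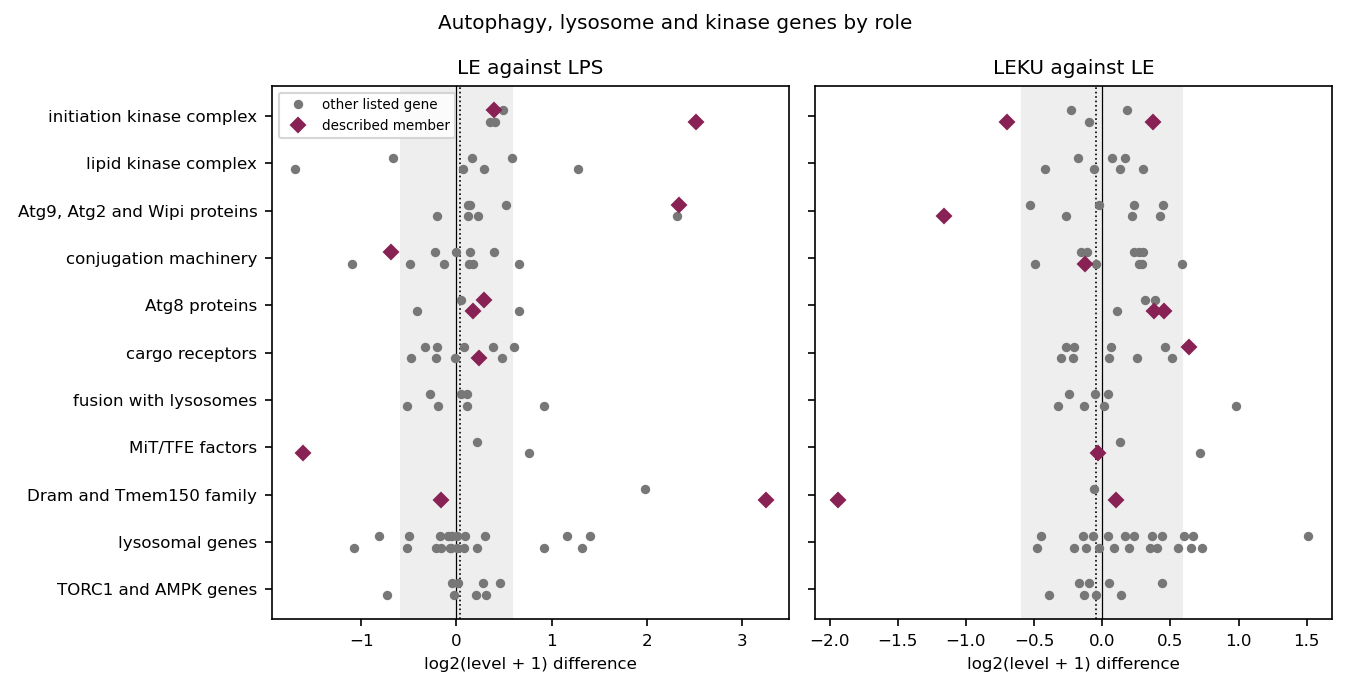
Log2(level + 1) differences for the listed genes that reached the minimum level, by role, for etoposide against LPS (left) and for KU55933 and etoposide against etoposide (right). Diamonds are the 10 genes described here, circles other listed genes, the grey band is less than 1.5-fold and the dotted line the median of all genes kept; outside the lysosomal genes, 2 circles lie outside the band on the right.

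Of 23 lysosomal genes, many of them known targets of Tfeb, 22 reached the minimum level. With etoposide 4 were higher by at least 1.5-fold and 2 were lower (27.3%, against 37.7% of all genes), and the median log2(level + 1) difference was −0.051. The 4 higher were Tpp1 and the cathepsins Ctsd, Ctsl and Ctsb, and the 2 lower were Neu1 and Ctsa, the cathepsins and Ctsa named after their values were seen. Tpp1, a lysosomal peptidase, had levels of 1543, 4087 and 3536 in LPS, LE and LEKU. Neu1, a sialidase, had levels of 1262, 599 and 1710. With KU55933 and etoposide against etoposide, 5 were higher and none was lower (22.7%, against 18.9%), with a median of 0.22 against −0.049 for all genes. Among them were Neu1 and, named after their values were seen, Ctsa, Mcoln1 and Gla, with log2 differences of 1.51, 0.73, 0.65 and 0.60. With the columns as deposited this count was 2. Against LPS the count in LEKU was also 5 higher and none lower (22.7%, against 36.2% of all genes), and 11 higher with the columns as deposited. With factors set on all genes of the table, the splits against LPS became 4 and 4 in LE and 4 and 1 in LEKU. With the columns as deposited the split was 4 and 1 in LE.

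Of 8 genes of the TORC1 and AMPK kinases, which restrain and promote Ulk1 respectively, 1 was past 1.5-fold with etoposide (12.5%, against 37.7% of all genes). This was Rptor, the substrate-binding subunit of TORC1, with levels of 1145 in LPS, 692 in LE and 632 in LEKU. Tsc2, which holds TORC1 back, had levels of 1649, 2048 and 2114. None of the 8 was past 1.5-fold between LEKU and LE, against 18.9% of all genes.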

How the data were processed

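Per the labels and the methods of the study, reads were trimmed with Trim Galore and cutadapt 1.2.1, mapped to GRCm38 with TopHat2 2.0.12, counted on Ensembl genes with HTSeq and fitted with DESeq2 1.6.3. The deposited table holds a signal in each of 12 libraries, a fitted condition mean multiplied by a library factor, and not a count. The limma test that had been planned requires replicate values, so it was left out. The authors' own comparison tables hold fold changes, standard errors and p-values and were not used.

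Library factors were the median ratio to the geometric mean over 13712 genes with a value of at least 10 in every library. Genes were kept if 4 libraries or more had a level of 10 or higher, differences were taken on log2(level + 1), and counts past 1.5-fold were made. Intervals were exact (Clopper-Pearson) at 95%. Exonic lengths, as the union of exons over all annotated transcripts, and coordinates came from GENCODE on GRCm38. Named list genes are the highest and the lowest of each list in LE against LPS with a mean level of at least 100. The 10 genes and the lists were chosen with earlier results of these data known. The scripts used pandas 2.3.3, scipy 1.17.1 and numpy 2.4.6 under Python 3.11.15, figures were drawn with matplotlib 3.10.9, and the steps were tested on simulated data. The alternatives were TMM factors (trims of 30% and 5%), column totals, the columns as deposited, quantile normalization, pseudocounts of 0.5 and 5, no filter, a minimum of 50, limits of 2-fold and of 25% above the lower level and leaving out each library. Factors set on all listed genes were added after the data were seen. Values of 1 listed gene are not reported here.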

Additional observations from a re-analysis of the deposited data

How the results depend on the processing

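Of the 30 log2 differences of single autophagy genes, 23 kept both their sign and their side of 1.5-fold under the 7 other settings of scaling and pseudocount. Dram1, Ulk1 and Wipi1 did so in all 3 comparisons. Besides the exceptions given above, Ulk2 in LE against LPS was past 1.5-fold with the columns as deposited (0.67), and Gabarapl1 in LEKU against LPS with those, with TMM factors and with column totals (up to 0.74). Scaling moved the median of all genes kept by more than 0.1 on the log2 scale in several settings. The shift was 0.13 in LEKU against LPS with column totals. With the columns as deposited it was 0.27 in LE and 0.19 in LEKU against LPS. With quantile normalization it was −0.12 in LE against LPS. With factors set on all genes of the table it was −0.15 and −0.11 in LE and LEKU against LPS.

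The median of the 10 genes in LE against LPS became 0.33 with column totals and 0.54 as deposited. It was 0.34 with quantile normalization and 0.12 with factors on all genes of the table. In LEKU against LPS it became 0.88 with column totals, 0.94 as deposited, and 0.65 with factors on all genes of the table. In LEKU against LE it was −0.054 as deposited. Lysosomal genes past 1.5-fold in LEKU against LPS numbered 11 as deposited and 8 with quantile normalization, and 2 in LEKU against LE as deposited. With a limit of 2-fold, which 20.3%, 6.4% and 17.3% of all genes passed in LE against LPS, LEKU against LE and LEKU against LPS, 2 of the 10 genes were past it in LEKU against LE and 4 in LEKU against LPS. The wider list then had 5, 0 and 7 in the same order, and the lysosomal genes 1 and 2 in the last pair. With a limit of 25% above the lower level, which 58.6%, 41.6% and 59.2% of all genes passed, 7 of the 10 genes were past it in LEKU against LE, the wider list had 24, 12 and 27, and the lysosomal genes 12 and 14 in the last pair. Over all genes kept, the split of 3650 higher and 2242 lower in LE against LPS became 2800 and 3250 with quantile normalization. It became 3068 and 3138 with factors on all genes of the table and 5146 and 1139 as deposited. In LEKU against LE the split of 1082 and 1863 became 1450 and 1546 with quantile normalization and 800 and 2331 as deposited. In LEKU against LPS that of 3429 and 2222 became 2685 and 2629 with quantile normalization. It became 2918 and 2804 with factors on all genes of the table, 4194 and 1619 with column totals and 4593 and 1389 as deposited. The columns as deposited keep the library factors, which were 0.838 to 0.967 in LPS, 0.957 to 1.30 in LE and 0.900 to 1.11 in LEKU. That setting is therefore no rescaling of the libraries. The cause of the shifts in the other settings was not tested.

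Leaving out a library moved the medians of the 10 genes by little, with ranges of 0.258 to 0.265, 0.0305 to 0.0388 and 0.746 to 0.756 in the order above, but the fitted means had been made with all libraries, so that this does not test stability. No paired analysis was possible because the fitted means hold no values per replicate.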

Other observations

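Several autophagy genes with low levels in LPS, picked after their values were seen, were higher in both conditions with etoposide. Of all genes kept, 23.4% were higher by at least 1.5-fold in LE against LPS and 22% in LEKU against LPS. Atg10, with levels of 101 in LPS, 46.6 in LE and 70.4 in LEKU, went the other way. Atg9b, a membrane protein of forming autophagosomes, had levels of 25.9 in LPS, 133 in LE and 110 in LEKU. Tmem150a, of the protein family of Dram1, had levels of 29.8, 121 and 116. For both, the log2(level + 1) difference between LEKU and LE was −0.27 and −0.058, against −1.94 for Dram1. Mitf, a relative of Tfeb, had levels of 20.4, 35.4 and 58.7. At such levels the fitted means rest on few reads, and no spread between replicates was available.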
